A study of Rattus norvegicus with 12 samples.

Results

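The endothelin and nitric oxide genes examined here were 9 genes chosen by name: the ligands Edn1 and Edn3, the converting enzyme Ece1, the receptors Ednra and Ednrb, the nitric oxide synthases Nos1 and Nos3, and the dimethylarginine hydrolases Ddah1 and Ddah2. All 9 were among the 21239 genes with counts, of 37246 genes listed. The samples came from 12 male rats and were labelled left atrium, a label that 4 libraries went against by their markers, and were read by RNA sequencing as 4 groups of 3 libraries. The WKY group held normotensive Wistar-Kyoto rats and the SHR group spontaneously hypertensive rats, both fed saline at 7.5 ml/kg/day. The ARB group held SHRs fed valsartan at 30 mg/kg/day, and the ARNI group SHRs fed sacubitril/valsartan at 60 mg/kg/day, which adds a neprilysin inhibitor to the angiotensin receptor blocker. Treatment lasted 4 weeks, in animals bought at 14 weeks of age. No WKY rats received either drug, so the treated groups differ from the WKY group in both strain and drug.

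Endothelin-1 is a vasoconstrictor peptide that endothelial and other cells release after endothelin-converting enzyme 1 has cut it from its precursor. It acts through the receptor ETA, which constricts vessels, and the receptor ETB, which on endothelium triggers nitric oxide release and clears the peptide. Nitric oxide is made from arginine by nitric oxide synthases, which are inhibited by asymmetric dimethylarginine, the substrate of the hydrolases Ddah1 and Ddah2, and it signals through soluble guanylyl cyclase and cGMP.

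Several libraries went against their labels. For the 6 saline libraries the title names the opposite strain from the library name, and they were grouped by library name. All 6 treated libraries carry the strain label Wistar-Kyoto beside a spontaneously hypertensive phenotype and were taken as SHRs. Mettl24 read 3.02 to 3.58 CPM (a gene's count divided by the library's total count and scaled to 1000000) in the WKY libraries and at most 0.0688 CPM in the other 9. Ndufa10l1 read 0 in all 3 WKY libraries and at least 54 CPM elsewhere. Cd36 read 1382 to 1584 CPM in the WKY libraries and 63.6 to 285 CPM in the other 9. Each of these genes separated the 3 WKY libraries from the rest. They were picked with earlier results of these data known, so they are no independent check of the labels. The 6 atrial cardiomyocyte markers, Myl7, Myl4, Sln and Nppa among them, summed to 52.4 to 280 CPM in the WKY libraries and to 74.2 CPM in ARNI replicate 2, against 27693 to 77097 CPM in the other 8 libraries. The 5 ventricular markers, which include Myl2, Myl3 and Myh7, summed to 43273 to 43595 CPM in the WKY libraries, 18563 CPM in ARNI replicate 2, 9833 CPM in SHR replicate 2, 10624 CPM in ARB replicate 3, and 371 to 935 CPM in the rest. In all, 6 libraries, the 3 of WKY and these 3, had Myl2 over 100 CPM. Strain and this marker pattern cannot be told apart between the SHR and WKY groups, and the marker pattern also split each group of SHRs. Total counts were 11252361 to 15823525 per library.

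Between the SHR and WKY groups, which also differed in atrial and ventricular markers, 2 members passed the call thresholds given below. Edn1 was 3.08-fold higher in SHRs and Ednrb, the gene of the ETB receptor, was 2.44-fold higher, while Ednra, Nos3, Ddah1 and Ddah2 had fold changes between 0.869 and 0.987. Each call was lost in 5 of 6 fits that left out 1 library. ARNI replicate 2, the SHR library with the lowest atrial markers, read 2.36 CPM for Edn1 and 23 CPM for Ednrb. The highest WKY values were 2.17 and 25.3 CPM. A gene was called when edgeR's quasi-likelihood test gave a log2 fold change of 1 or more in size with an adjusted p (Benjamini-Hochberg, over all genes tested) no higher than 0.05. Of the 8 members tested, 2 were called, both higher, against 8.89% of 13794 genes in either direction, 5.53% higher and 3.36% lower. An unadjusted p under 0.05 was reached by 3 members (Edn1, Ednrb and Nos1) and by 39.4% of genes. DESeq2 called 2 members as well. The 8 members had a median log2 fold change of -0.05, near the 0.01 of all genes. Of all genes, 763 were called higher and 463 lower, and with total counts in place of TMM scaling, which moved the median of all genes to 0.15, 985 and 363. P-values measure a spread per gene that the test takes as shared by both groups, though the groups were not equally spread. Set against counting noise, replicate pairs had a chi-square per degree of freedom of 4.03 to 6.36 in the WKY group and 42.7 to 106 in the SHR group. In bulk tissue fewer cells of a type and less RNA per cell cannot be told apart.

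**Figure D1:**
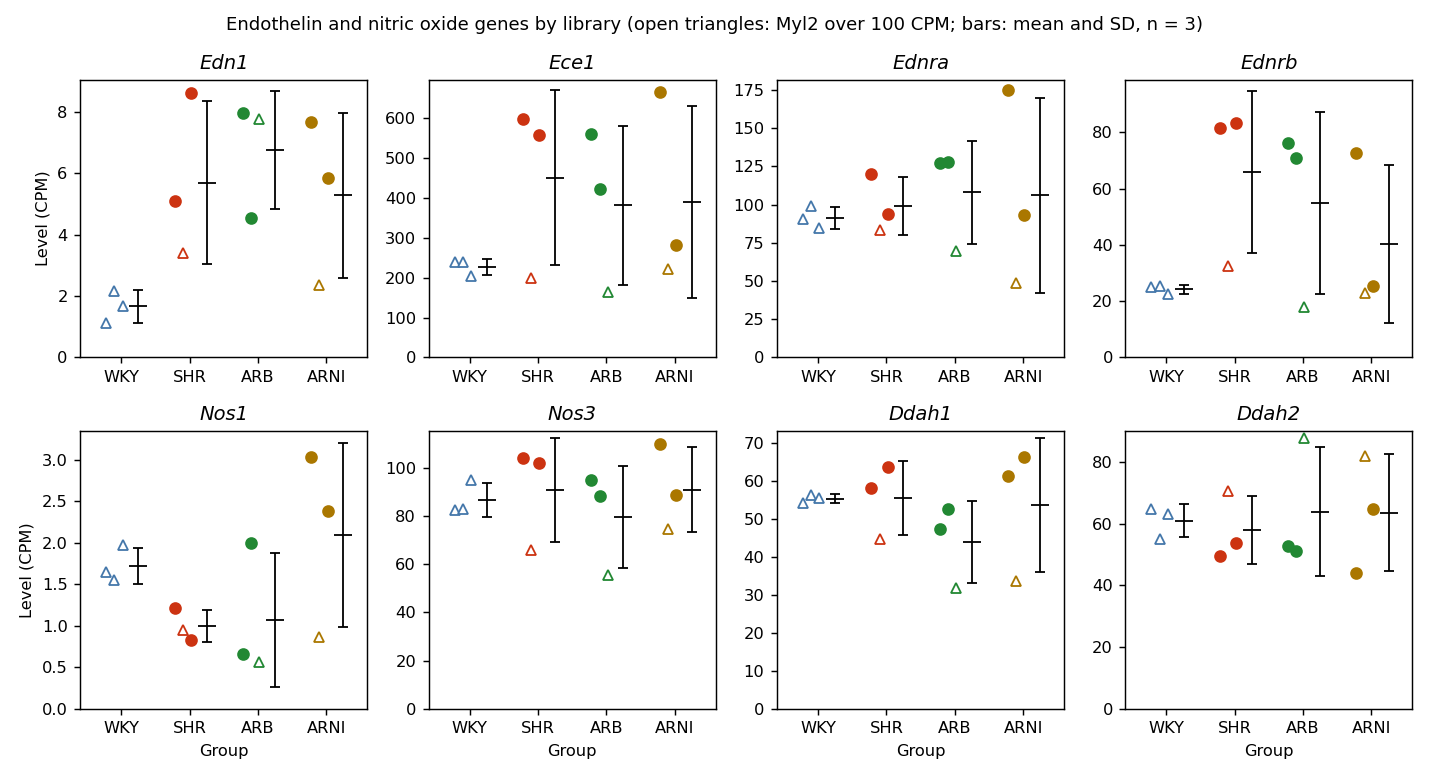
Levels in CPM (vertical axes, from 0) of 8 genes in the 3 libraries of each group, with the mean and SD beside them; open triangles are the 6 libraries with Myl2 over 100 CPM. Edn1 is at most 2.17 CPM in the WKY libraries and Ednrb reaches at least 70.8 CPM in 5 of the 6 libraries drawn as filled circles.

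Edn1, the gene of the endothelin-1 precursor, rested on 13 to 127 reads per library. It read 1.11, 2.17 and 1.69 CPM in WKY replicates 1 to 3 and 5.08, 3.39 and 8.6 CPM in the SHR group. Under treatment it read 7.94, 4.54 and 7.77 CPM in the ARB group and 7.65, 2.36 and 5.83 CPM in the ARNI group. Every library from an SHR was above every WKY library, the closest being ARNI replicate 2. Its log2 fold change between SHR and WKY was 1.62 (SE 0.39, 95% interval 0.69 to 2.56, edgeR adjusted p = 0.0341, DESeq2 adjusted p = 0.00471). Edn3, the gene of endothelin-3, the ligand that acts mainly through ETB, had 1 read in all 12 libraries, in WKY replicate 3. The other 11 libraries had none, which allows a level of up to 0.190 to 0.261 CPM per library, and Edn3 was not tested.

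Ece1, the gene of the converting enzyme, was split within the groups of SHRs. It read 240, 239 and 203 CPM in the WKY group and 597, 199 and 558 CPM in the SHR group, so that SHR replicate 2 was below all WKY libraries. ARB libraries read 559, 421 and 164 CPM, and ARNI libraries read 665, 223 and 281 CPM. The SHR and WKY groups overlapped, and the log2 fold change of 0.84 (SE 0.36, 95% interval -0.03 to 1.70, edgeR adjusted p = 0.138) was not called. Without SHR replicate 2 it was 1.18 (edgeR adjusted p = 0.000624), past both thresholds. With a score of atrial minus ventricular markers per library as a covariate it turned to -0.96 (SE 0.54, edgeR adjusted p = 0.354).

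The 2 receptor genes differed in pattern. Ednra, the gene of ETA, read 90.6, 99 and 84.5 CPM in the WKY group and 120, 83.3 and 94 CPM in the SHR group, with overlap. Ednrb read 25.1, 25.3 and 22.5 CPM in the WKY group and 81.5, 32.6 and 83.3 CPM in the SHR group, where all 3 libraries were higher and SHR replicate 2 was the closest to WKY. The log2 fold change of Ednrb was 1.28 (SE 0.32, 95% interval 0.53 to 2.04, edgeR adjusted p = 0.0353, DESeq2 adjusted p = 0.00124). For Ednra it was -0.02 (SE 0.15, 95% interval -0.37 to 0.33, edgeR adjusted p = 0.936), 0.12 with total counts and -1.29 with the marker score (SE 0.34, edgeR adjusted p = 0.0859), so its direction was not settled. The count of Ednra per count of Ednrb, which keeps the same 2 genes and so needs no scaling between libraries, was 3.6, 3.91 and 3.76 in the WKY group and 1.47, 2.56 and 1.13 in the SHR group. These groups did not overlap. In treated SHRs it was 1.66, 1.81 and 3.91 for ARB and 2.41, 2.12 and 3.69 for ARNI, so ARB replicate 3 and ARNI replicate 3 were at the WKY level.

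Nos1, the neuronal synthase gene, which cardiomyocytes also use, was lower in every SHR library than in every WKY library, but was not called. It read 1.65, 1.55 and 1.97 CPM in the WKY group and 1.21, 0.951 and 0.833 CPM in the SHR group, a log2 fold change of -0.92 (SE 0.30, 95% interval -1.63 to -0.21, edgeR adjusted p = 0.0686, DESeq2 adjusted p = 0.163). Counting it, 3 of the 8 members did not overlap between the groups, 2 higher and 1 lower, against 49.6% of all genes tested (33.7% higher and 15.9% lower), which is not above that share. Nos3, the endothelial synthase gene, read 82.7, 82.9 and 94.9 CPM in the WKY group and 104, 65.9 and 102 CPM in the SHR group. The groups overlapped, with SHR replicate 2 lowest, and the log2 fold change was -0.08 (SE 0.17, 95% interval -0.48 to 0.32, edgeR adjusted p = 0.749) and 0.07 with total counts.

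Neither hydrolase gene was called. Ddah1 read 54.2, 56.5 and 55.5 CPM in the WKY group and 58.2, 44.7 and 63.7 CPM in the SHR group, on both sides of WKY. Ddah2 read 64.8, 55 and 63.3 CPM in the WKY group and 49.5, 70.5 and 53.8 CPM in the SHR group, with SHR replicate 2 above WKY and the other two below. The log2 fold change was -0.14 for Ddah1 (SE 0.11, 95% interval -0.41 to 0.13, edgeR adjusted p = 0.388), and 0.0043 with total counts. For Ddah2 it was -0.20 (SE 0.18, 95% interval -0.63 to 0.22, edgeR adjusted p = 0.424).

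Both calls between SHR and WKY were sensitive to the libraries in the fit. Edn1 and Ednrb were past both thresholds without SHR replicate 2, at log2 fold changes of 1.86 and 1.59 (edgeR adjusted p = 0.0071 and 9.63e-05). Without SHR replicate 1, SHR replicate 3 or any of the WKY replicates, log2 fold changes were 1.26 to 1.86 for Edn1 and 1.09 to 1.31 for Ednrb, and edgeR adjusted p-values were 0.0572 to 0.113 and 0.0696 to 0.124. With all 12 libraries in 1 fit they were 0.0573 and 0.153. Calls over all genes fell too in 1 fit and without SHR replicate 1 or any WKY replicate. From 763 higher and 463 lower in the main fit, they went to 253 and 95 without WKY replicate 3. They were 399 and 180 in 1 fit, 127 and 33 with the marker score, and 1109 and 1096 without SHR replicate 2. With the marker score as a covariate, the log2 fold change was 0.47 for Edn1 (SE 0.64, edgeR adjusted p = 0.72) and -0.57 for Ednrb (SE 0.63, edgeR adjusted p = 0.645). The scores ran from -11.10 to -10.73 in the WKY group and from 0.28 to 9.64 in the SHR group. The library of an SHR nearest to WKY was ARNI replicate 2 at -9.10. In the same fit Nos1 was at -2.25 (SE 0.72, edgeR adjusted p = 0.134) and Nos3 at -0.67 (SE 0.24, edgeR adjusted p = 0.17). Ddah1 passed the adjusted p alone there, at -0.95 (SE 0.13, edgeR adjusted p = 0.0112), and Ddah2 was at 0.91 (SE 0.24, edgeR adjusted p = 0.0879).

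**Figure D2:**
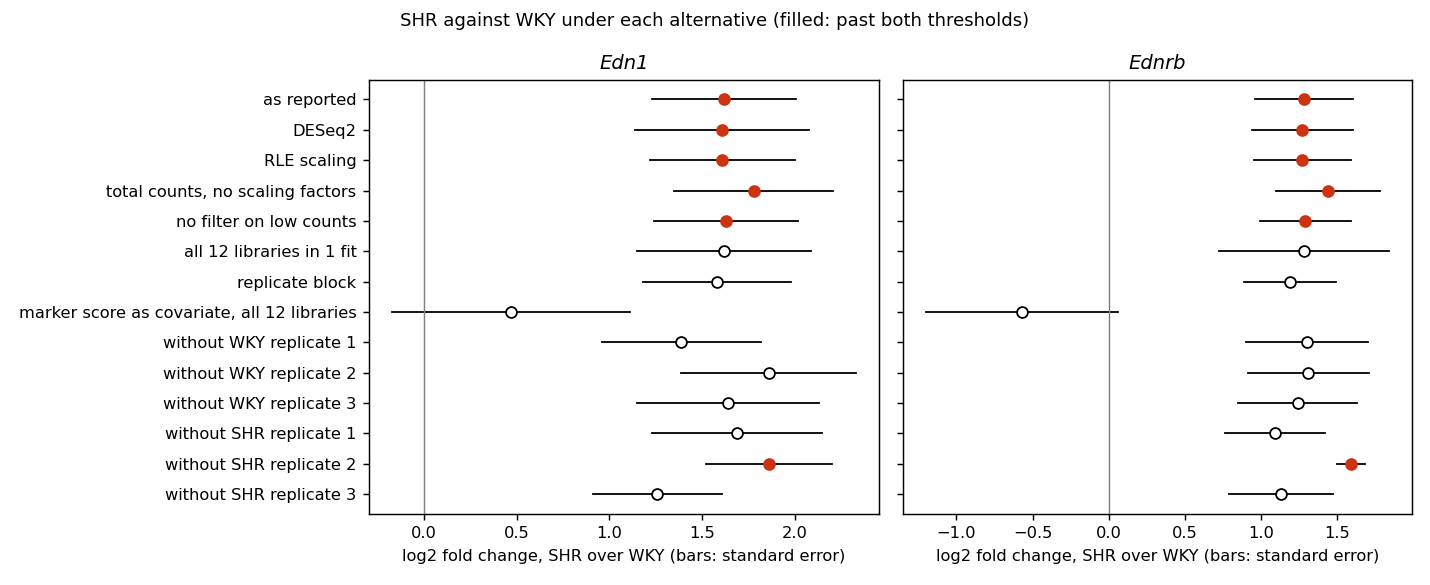
SHR over WKY log2 fold changes (horizontal axes) with standard errors for Edn1 and Ednrb under each alternative (rows); filled points are past both thresholds. The estimate of Edn1 is above 0 in every fit, from 0.47 to 1.86, and Ednrb falls to -0.57 in the fit with the marker score. In that fit the standard error bars of both genes cross 0.

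Endothelial markers did not move as 1 set: 4 of the 8 had positive and 4 negative log2 fold changes between SHR and WKY. None of the 8 endothelial markers was called between SHR and WKY, and their summed level was 1124 to 1186 CPM in the WKY group, 966 to 1630 in SHR, 796 to 1616 in ARB and 952 to 1835 in ARNI, with no marker at 0 in any group. Vwf, the gene of von Willebrand factor, read 402, 341 and 274 CPM in the WKY group and 674, 325 and 679 CPM in the SHR group, a log2 fold change of 0.57 (SE 0.28, edgeR adjusted p = 0.173). Cdh5, the gene of VE-cadherin, read 176, 172 and 198 CPM in the WKY group and 87.4, 120 and 141 CPM in the SHR group, and passed the adjusted p alone at -0.79 (SE 0.17, edgeR adjusted p = 0.0265). Pecam1 was 0.15 (SE 0.16, edgeR adjusted p = 0.517). Kdr, lower in every SHR library than in every WKY library, was -0.57 (SE 0.19, edgeR adjusted p = 0.0771). The part of endothelial content in the result for Ednrb was not tested. The 4 epicardial or mesothelial markers summed to 44.6 to 54.9 CPM in the WKY group and 132 to 282 CPM in the SHR group, with 3 of 4 called higher. Of the other marker lists, 1 of 4 smooth muscle (Myh11), 1 of 5 pericyte (Kcnj8), 2 of 5 macrophage or leukocyte (Ptprc and Cd163) and 1 of 3 erythroid markers (Alas2) were called lower, and 1 of 5 neuron markers (Prph) higher. Their summed levels in the WKY and SHR groups were 153 to 204 and 101 to 140 CPM for smooth muscle, 535 to 575 and 497 to 576 for pericytes, 78.5 to 118 and 32 to 103 for macrophages or leukocytes, 250 to 536 and 106 to 255 for erythroid cells, and 5.33 to 5.71 and 9.15 to 17.7 for neurons. The part of these cell types was not tested either.

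No member was called under either drug. Against the SHR group, 0 of 8 members were called for ARB and 0 of 8 for ARNI by edgeR or DESeq2, and 0 had an unadjusted p under 0.05. edgeR called 0% of 13979 genes for ARB, 0% of 13956 for ARNI and 0% of 13949 for ARNI against ARB. Unadjusted p-values were under 0.05 for 1.61%, 1.63% and 3.86% of those genes, and DESeq2 called 3, 7 and 18 genes, none of them a member. No member's groups failed to overlap in any of the 3 comparisons, against 5.39%, 6.56% and 10.5% of genes tested. The 3 comparisons share libraries.

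The largest treatment difference was that of Nos1. It read 0.666, 2 and 0.558 CPM in the ARB group and 3.03, 0.865 and 2.38 CPM in the ARNI group, where replicates 1 and 3 were above all SHR libraries and replicate 2 was among them. The log2 fold change of ARNI over SHR was 1.12 (SE 0.48, 95% interval -0.03 to 2.28, edgeR adjusted p = 0.999), and for ARNI over ARB it was 1.02 (SE 0.62, 95% interval -0.47 to 2.51, edgeR adjusted p = 0.993). At these levels Nos1 rested on 7 to 48 reads per library. Neuron markers summed to 90.2 CPM in ARNI replicate 3, against at most 17.7 CPM in the SHR group and 18.8 CPM in the ARB group. ARNI replicate 1, with the higher Nos1 level, had a neuron sum of 15 CPM. The part of neurons in the Nos1 levels was not tested.

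For the other members the intervals of the treatment differences were wide. Ednrb read 76.3, 70.8 and 17.8 CPM in the ARB group and 72.6, 23 and 25.4 CPM in the ARNI group, so ARB replicate 3 and ARNI replicates 2 and 3 were near or below WKY and the other libraries near SHR replicates 1 and 3. Its log2 fold change was -0.24 for ARB over SHR (95% interval -1.53 to 1.06) and -0.63 for ARNI over SHR (95% interval -1.93 to 0.66). Each ARNI library was below the SHR library of the same number, and with the replicate number as a block the value was -0.71 (SE 0.32, edgeR adjusted p = 0.844). No label pairs these animals, and replicate 2 had Myl2 over 100 CPM in both groups, so the block cannot be read as a paired comparison. Edn1 had 0.31 for ARB over SHR (95% interval -0.61 to 1.22) and -0.04 for ARNI over SHR (95% interval -1.19 to 1.11). Ece1 had -0.21 (95% interval -1.45 to 1.03) and -0.14 (95% interval -1.43 to 1.16). Each of these intervals includes changes of more than 1 log2 unit in at least 1 direction.

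Ednra, Nos3 and the hydrolase genes were also spread within the treated groups. Ednra read 127, 128 and 69.4 CPM for ARB and 175, 48.6 and 93.5 CPM for ARNI, which held both the highest and the lowest value of the 12. Nos3 read 95.2, 88.5 and 55.6 CPM for ARB and 110, 74.6 and 88.9 CPM for ARNI. Ddah1 read 47.4, 52.8 and 31.9 CPM for ARB and 61.4, 33.6 and 66.3 CPM for ARNI, and Ddah2 read 52.8, 51 and 87.8 CPM for ARB and 44, 82 and 64.7 CPM for ARNI. ARB replicate 3 and ARNI replicate 2 were the lowest of their groups for Ednra, Nos3 and Ddah1 and the highest for Ddah2. Against the SHR group, the log2 fold change of largest size among these 4 genes was that of Ddah1 for ARB, -0.31 (SE 0.18, 95% interval -0.75 to 0.13).

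**Figure D3:**
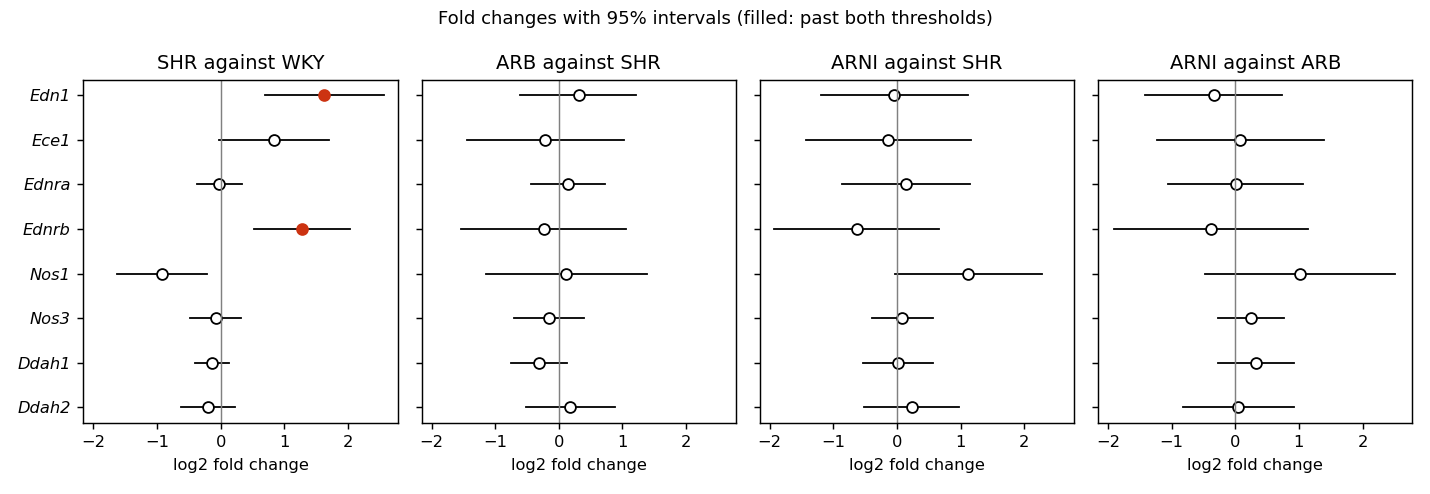
The log2 fold change (horizontal axis) and 95% interval of 8 members in 4 comparisons. The called genes, filled, are Edn1 at 1.62 and Ednrb at 1.28 between SHR and WKY, and every interval in the 3 comparisons with treated groups includes 0.

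Within groups, most members moved together across libraries. Among the 9 libraries of SHRs, the 3 with Myl2 over 100 CPM, SHR replicate 2, ARB replicate 3 and ARNI replicate 2, held the 3 lowest values of Ece1, Ednra, Nos3 and Ddah1 and the 3 highest of Ddah2. The 3 lowest were held by these libraries for 17.9% of 14453 genes and the 3 highest for 9.37%. Edn1, Ednrb and Nos1 did not follow this: Edn1 reached 7.77 CPM in ARB replicate 3, and Ednrb was 25.4 CPM in ARNI replicate 3, which has Myl2 at 24.2 CPM. ARNI replicate 3 also had Ece1 at 281 CPM and Vwf at 317 CPM, below the 5 other libraries with Myl2 under 100 CPM, and the highest sums of smooth muscle (682 CPM) and neuron (90.2 CPM) markers of the 12 libraries.

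Across the 12 libraries, deviations from group means in log2 CPM gave a Pearson r of 0.97 between Ednrb and Ece1, 0.93 between Nos3 and Ece1 and -0.91 between Ddah2 and Ednrb. To the endothelial markers Pecam1 and Cdh5, r was 0.92 and -0.42 for Ednrb and 0.93 and -0.45 for Ece1. These are descriptions: the points share their tissue makeup and library. Edn1 stood apart, with r between 0.05 and 0.49 to the other members other than Ddah2, for which it was -0.40. Of 14453 genes, those most like Ednrb were Rbms2 (0.988), Vwf (0.985) and Ttc21b (0.985), and those most like Ece1 were Rest (0.991), Foxc1 (0.988) and Plxnc1 (0.983). Nearest to Edn1 were Opn3 (0.919), Trim59 (0.902) and Vav3 (0.889), and nearest to Ednra were Carmil1 (0.988), Kcnj5 (0.987) and Tgs1 (0.986). For Nos1 they were LOC103690156 (0.967), Orc4 (0.957) and Dmd (0.952), and for Nos3 they were Heg1 (0.973), Lrmda (0.969) and Xylt2 (0.968). Foxp1 (0.988) and Mypop (0.983) came closest to Ddah1, and Slc25a12 (0.988), Ushbp1 (0.984) and Banf1 (0.982) to Ddah2.

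**Figure D4:**
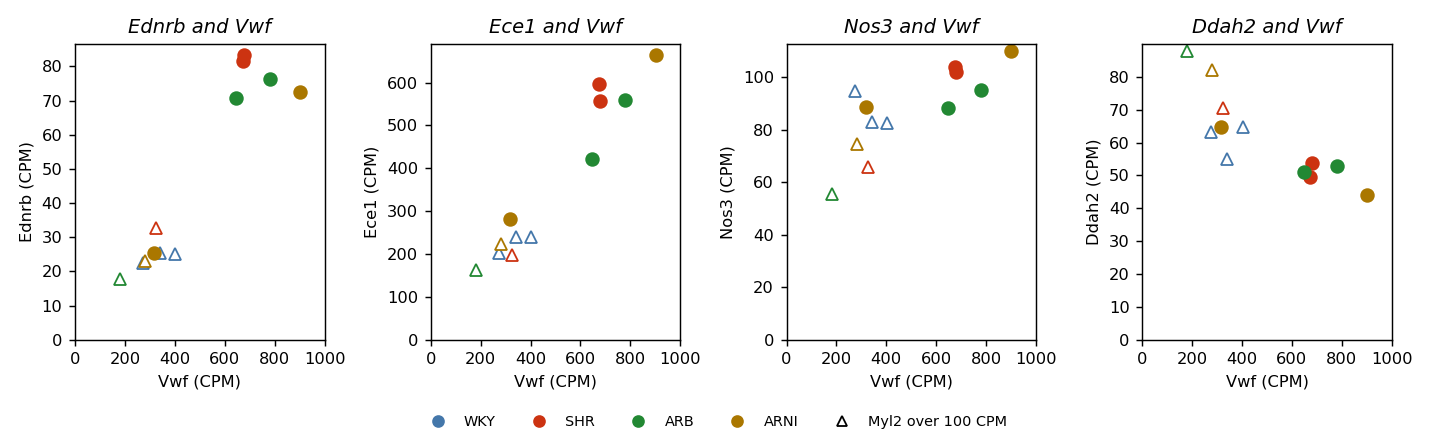
Levels in CPM of Ednrb, Ece1, Nos3 and Ddah2 (vertical axes) against Vwf (horizontal axes) in 12 libraries, coloured by group; open triangles are libraries with Myl2 over 100 CPM. Ednrb is at or below 32.6 CPM in the 7 libraries with Vwf of at most 402 CPM and at least 70.8 CPM in the 5 with Vwf of at least 647 CPM, and Ddah2 falls as Vwf rises. Vwf is 1 of 8 endothelial markers, and Cdh5, another, had a Pearson r of -0.42 to Vwf within groups.

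The upstream sequences of the 2 called genes and of Ece1, which moved with Ednrb, are given as the 250 bases before the annotated start in RefSeq (GRCr8). Promoters were found for 7 of the 9 members. Capitals mark matches, on either strand, to any of 4 motifs, which do not overlap here. The AP-1 motif was searched as TGANTCA. The motif of GATA factors was searched as AGATAA. The GC box of Sp1 and KLF factors was searched as GGGCGG. The TATA box was searched as TATAAA. Edn1 lies on the minus strand at chr17:22666688-22666937, Ednrb on the minus strand at chr15:87086766-87087015 and Ece1 on the plus strand at chr5:155360781-155361030.
Edn1: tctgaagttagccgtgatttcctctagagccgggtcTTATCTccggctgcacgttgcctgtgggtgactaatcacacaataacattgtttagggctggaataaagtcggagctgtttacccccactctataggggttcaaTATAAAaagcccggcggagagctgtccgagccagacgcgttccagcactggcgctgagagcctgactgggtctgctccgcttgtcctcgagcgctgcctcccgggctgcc
Ednrb: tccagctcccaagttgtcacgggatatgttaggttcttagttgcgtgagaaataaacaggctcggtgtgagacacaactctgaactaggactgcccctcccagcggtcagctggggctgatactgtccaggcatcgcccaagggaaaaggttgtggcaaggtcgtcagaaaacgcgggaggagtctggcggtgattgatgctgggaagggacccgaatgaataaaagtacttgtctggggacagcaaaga
Ece1: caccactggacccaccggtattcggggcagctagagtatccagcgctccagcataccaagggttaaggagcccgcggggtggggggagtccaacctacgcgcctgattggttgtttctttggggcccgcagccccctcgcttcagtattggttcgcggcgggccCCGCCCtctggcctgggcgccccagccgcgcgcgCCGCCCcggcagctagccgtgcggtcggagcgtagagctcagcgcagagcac
Edn1 held 1 GATA match, TTATCT at 214 bases before the start, and 1 TATA box at 110 bases. Ece1 held 2 matches to the GC box, and Ednrb held none of the 4 motifs. Among 33469 promoters, 6.34% held the AP-1 motif, 10.3% the GATA motif, 30.5% the GC box and 12.9% the TATA box. A match is a description of the letters, and no binding was measured.

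Of the other genes of the pathway, 49 were listed in 5 groups, 48 were in the table and 40 were tested between SHR and WKY. In all, 3 were called, 1 higher and 2 lower, against 8.89% of all genes, a share that 3 of 40 is not above, with 4 higher and 5 lower by the adjusted p alone, which 20.6% of all genes passed, 12.3% higher and 8.26% lower. Their median log2 fold change was -0.10. None was called in the 3 comparisons with treated groups.

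Among the 9 other endothelin genes, 6 were tested and Mme, the gene of neprilysin, the enzyme that sacubitril inhibits and that degrades endothelin and natriuretic peptides, was called lower. It read 2.3, 2.09 and 2.4 CPM in the WKY group and 0.201, 0.394 and 1.22 CPM in the SHR group, a log2 fold change of -2.03 (SE 0.55, edgeR adjusted p = 0.045). It missed the adjusted p in 10 of 13 alternatives, among them leaving out SHR replicate 1, SHR replicate 2 or any WKY replicate, with edgeR and DESeq2 adjusted p-values of 0.0122 to 0.41 over all 13.

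The arginine list had 8 of 10 genes tested, 6 of them with negative log2 fold changes. Only Ass1, the gene of argininosuccinate synthase, which rebuilds arginine from citrulline, was called, and it was lower. It read 8.78, 7.39 and 9.6 CPM in the WKY group and 1, 1.97 and 2.17 CPM in the SHR group, with no overlap. The log2 fold change was -2.46 (SE 0.30, edgeR adjusted p = 0.00611), and it stayed between -2.63 and -2.19 in 13 alternatives, past the adjusted p in all of them other than the fit with the marker score (0.146). Prmt3, a protein arginine methyltransferase gene, passed the adjusted p alone at -0.61 (SE 0.13, edgeR adjusted p = 0.0254).

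Downstream of nitric oxide, 6 of 9 genes were tested. Prkg2, the gene of a cGMP-dependent kinase, read 4.95, 1.42 and 4.4 CPM in the SHR group while no WKY library held a read of it, and was called higher (edgeR adjusted p = 0.0166). With 3 counts per library, a mean of 0.261 CPM, taken as the highest level in the WKY group, its mean of 3.59 CPM in SHRs was at least 13.8-fold higher. It was not past the adjusted p without SHR replicate 1 or without any of the WKY replicates (at most 0.0564), nor with the marker score (0.283, at a log2 fold change of 4.20), and it read 0 in ARNI replicate 2.

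The 2 main subunits of soluble guanylyl cyclase, the nitric oxide receptor, differed in direction. They are named after their values were seen, since neither reached a log2 fold change of 1. Gucy1a1, the alpha subunit gene, read 38.4, 36.1 and 31.8 CPM in the WKY group and 72.8, 50 and 84.8 CPM in the SHR group. Gucy1b1, the beta subunit gene, read 15.3, 15 and 17.6 CPM in the WKY group and 10.3, 10.8 and 11.4 CPM in the SHR group. Neither pair of groups overlapped, and the log2 fold changes were 0.82 (SE 0.17, edgeR adjusted p = 0.0218) and -0.69 (SE 0.12, edgeR adjusted p = 0.0163). Such a lack of overlap was common: 33.7% of all genes tested were higher and 15.9% lower without overlap. Of the 40 pathway genes tested, 8 were higher and 7 lower in this way. Gucy1a1 and Gucy1b1 both missed an adjusted p of 0.05 without SHR replicate 1 or any WKY replicate, at up to 0.0916 and 0.0709. Both also missed it with the replicate block and with the marker score as a covariate, where Gucy1a1 turned to -0.26. Gucy1a1 missed it with all 12 libraries in 1 fit as well.

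Synthase-binding and tetrahydrobiopterin genes were called in neither direction. Of 13 synthase and synthase-binding genes tested, Dynll1, which binds Nos1, and Calm2, a calmodulin gene, passed the adjusted p alone, at 0.91 (SE 0.15, edgeR adjusted p = 0.0135) and 0.44 (SE 0.09, edgeR adjusted p = 0.024). Of 7 tetrahydrobiopterin genes tested, Spr, the gene of sepiapterin reductase, passed it at -0.54 (SE 0.14, edgeR adjusted p = 0.0397). These 3 and Prmt3 were likewise named after their values were seen, and all 4 missed the adjusted p without WKY replicate 1 or WKY replicate 3.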

How the data were processed

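RNA of 12 rats, labelled left atrium, was sequenced as single-end 50 base reads. The authors filtered reads with SOAPnuke 1.5.2, aligned them with HISAT2 2.0.4 and Bowtie2 2.2.5 (build Rnor_6.0 in the submitters' processing notes) and deposited RSEM 1.2.12 expected counts for each gene, of which 23.6% were not whole. The table's 2 columns of the authors' own comparison of SHR with WKY, a log2 ratio and a p-value, were not used. Total counts set the precision: 3 counts were 0.190 to 0.267 CPM, covering counting error only.

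Counts were rounded, filtered (filterByExpr), TMM-scaled and compared over the 6 libraries of a pair with edgeR 4.0.16 in R 4.3.3. Printed levels are CPM of the total, without TMM. DESeq2 1.42.0, other scalings, no filter, all libraries together, a replicate block, marker covariates and leaving out libraries were alternatives. Steps were tested on simulated data. All members were named by role; pathway genes past both thresholds were named. Members and lists were chosen with earlier results of these data known. Deviations of same-numbered libraries correlated at 0.18 to 0.51 in ARNI against SHR, where replicate 2 had Myl2 over 100 CPM in both groups. They ran from -0.25 to 0.42 in ARB against SHR and from -0.45 to 0.52 in ARNI against ARB. Unlike-numbered libraries with Myl2 over 100 CPM reached 0.51 (ARB replicate 3, SHR replicate 2) and 0.58 (ARNI replicate 2, ARB replicate 3). No label pairs the libraries, and whether the numbers pair animals cannot be told from these values.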

Additional observations from a re-analysis of the deposited data

How the results depend on the processing

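Between SHR and WKY, 2 members were called with DESeq2, RLE scaling, total counts and no filter, and 0 with all 12 libraries in 1 fit, with the replicate block and with the marker score as covariate. Leaving out 1 library gave 0 to 3 calls. Over all genes, leaving out 1 library gave 348 to 2205 calls. All 12 libraries in 1 fit gave 399 genes higher and 180 lower, against 763 and 463 in the main fit. The replicate block gave 461 and 220, and the marker score 127 and 33. The replicate numbers of SHR and WKY pair no samples (correlations of same-numbered libraries -0.07 to 0.03), and with the block Edn1 and Ednrb were at 1.58 and 1.19 (edgeR adjusted p = 0.0771 for each); it changed no other member's call. In the 3 comparisons with treated groups 0 members were called under every alternative run. The fit without libraries with Myl2 over 100 CPM could not be made for SHR against WKY, since no WKY library remains. Of 440 refitted fold changes, 370 kept direction and side of the threshold, 15 lost the call, 1 gained it and 54 changed sign; the cause was not tested.

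Sign changes between SHR and WKY were Ednra 0.12, Nos3 0.07 and Ddah1 0.0043 with total counts, and Ednrb -0.57, Ece1 -0.96 and Ddah2 0.91 with the marker score. For ARB over SHR, Edn1 was -0.08 without libraries with Myl2 over 100 CPM and Nos1 -0.04 with the block. For ARNI over SHR, the marker score gave Edn1 0.23, Ece1 0.42 and Ddah2 -0.13, the fit without libraries with Myl2 over 100 CPM gave Edn1 0.04 and Nos3 -0.01, and Ddah1 was -0.05 with total counts and -0.01 with the block. For ARNI over ARB, the fit without libraries with Myl2 over 100 CPM gave Edn1 0.12 and Ece1 -0.03, total counts gave Ednra -0.03 and Ddah2 -0.01, 1 fit gave Ednra -0.0001, the block gave Ednra -0.10, and the marker score gave Ednrb 0.10 and Ddah2 -0.24.

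Ranges when 1 library was left out, where a sign changed, were as follows. Between SHR and WKY, Ednra ran from -0.18 to 0.07 and Nos3 from -0.2 to 0.08. For ARB over SHR, Ednrb ran from -0.57 to 0.17, Ece1 from -0.61 to 0.13, Nos1 from -0.62 to 0.39, Nos3 from -0.31 to 0.01 and Ddah2 from -0.18 to 0.4. For ARNI over SHR, Edn1 ran from -0.38 to 0.34, Ednra from -0.4 to 0.46, Ece1 from -0.72 to 0.13, Nos3 from -0.08 to 0.2, Ddah1 from -0.12 to 0.22 and Ddah2 from -0.09 to 0.46. For ARNI over ARB, Ednra ran from -0.55 to 0.31, Ece1 from -0.51 to 0.48 and Ddah2 from -0.27 to 0.41.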

Other observations

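Mme and Ass1, both lower in the SHR than in the WKY group, were not low in every library of treated SHRs. Mme read 0.463, 4.13 and 0.793 CPM in the ARB group and 0.19, 1.73 and 6.99 CPM in the ARNI group, so that ARB replicate 2 and ARNI replicate 3 were above all WKY libraries. These 2 libraries also had the highest sums of adipocyte markers, 346 and 209 CPM, against 0.0669 to 14.1 CPM in the other 10. Ass1 read 1.59, 1.65 and 2.06 CPM in the ARB group and 1.9, 2.36 and 7.06 CPM in the ARNI group, where ARNI replicate 3 was near the WKY level. The part of other tissue in these values was not tested.

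The remaining ligand and synthase genes were scarce. Edn2, the gene of endothelin-2, had group means of 0.0961 to 0.236 CPM, and Nos2, the inducible synthase gene, had means of 0.682 CPM in the WKY group, 0.156 CPM in SHR, 0 in ARB and 0.113 CPM in ARNI, with no read in at least 1 library of every group.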
